A study of Mus musculus with 4 samples.

Results

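Levels of 9 transcription factors that mark and maintain airway epithelial lineages were examined in single cells of mouse trachea. The factors are Trp63, Sox2, Snai2, Nkx2-1, Foxa1, Foxa2, Elf3, Klf5 and Grhl2. They were chosen by name, and they are 9 of the 22583 genes in the deposited feature table. No factor was used to define a cell class: all 9 were kept out of the genes used for clustering. Each symbol matched 1 feature.

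The cells came from 4 groups of mice aged 5 to 8 months: wild-type mice, bgh mice carrying a mutated Spef2, Cfap54gt/gt mice, and nm1054 mice, which lack Cfap221. Each group was 1 library from pooled tracheas, 5 for bgh and 6 for each of the others. All mice shared the 129S6/SvEvTac background. Tracheas had been digested with Pronase and the cells plated for some hours to separate fibroblasts, so the shares of cell types reflect that handling. The deposited barcodes carry a library number from 1 to 4, and no source used here ties a number to a genotype. Values are therefore given by library number, and no genotype is set against another. With 1 library per genotype no value has a biological replicate, and no p-value is given. The 4 libraries are used as repeated observations of the same cell classes.

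The tracheal lining is a pseudostratified epithelium. Basal cells lie on the basement membrane and renew the secretory and ciliated cells above them, and hillock cells, tuft cells, ionocytes and neuroendocrine cells are minor types. Trp63 encodes p63, the defining regulator of basal cells in stratified and pseudostratified epithelia. Sox2 and Nkx2-1 pattern the foregut and airway. Foxa1 and Foxa2 are forkhead pioneer factors, which can bind closed chromatin, Elf3 is an epithelial Ets factor, Klf5 a zinc finger factor, Grhl2 a grainyhead factor that sustains epithelial junctions, and Snai2 a zinc finger repressor best known from epithelial-mesenchymal transition.

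Libraries held 39658153 to 53491773 unique molecular identifiers (UMIs, one count per captured RNA molecule) in 4202 to 7360 barcodes, and 19471 of 21667 barcodes passed filtering. Classes were named from marker genes and are written "X-like". Basal-like cells numbered 5169, secretory-like 6420, ciliated-like 3950, tuft-like 159 and hillock-like 90. Both basal-like clusters had 8 of 9 basal markers up, the secretory-like clusters 8 of 8, the ciliated-like clusters 8 or 9 of 9 and the tuft-like cluster 9 of 9. The hillock-like cluster had 7 of 9 hillock markers up, but also 6 of 9 basal and 5 of 8 secretory markers. Ionocytes and neuroendocrine cells shared 1 small cluster with leukocytes, and were taken there as cells with at least 3 markers of their type, 39 and 42 cells. Some barcode sequences, 52 in all, occurred in more than 1 library and were kept as separate cells. Levels are CPM, the UMIs of a gene summed over the cells of a class and scaled to the class's total UMIs. Intervals are exact 95% Poisson intervals for CPM and cover counting error only. Fewer cells carrying a transcript and less transcript per cell cannot be told apart in a summed level.

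Free RNA in droplets can give UMIs in cells that do not express a gene. Leukocytes of the small cluster, 55 cells with a median of 1703 UMIs, served as cells that should lack the epithelial factors. They held 0 UMIs of Trp63, Snai2, Nkx2-1, Foxa2, Elf3, Klf5 and Grhl2, and 1 UMI each of Sox2 and Foxa1. A count of 0 there gives an upper interval bound of 32.5 CPM, far under the 1139 CPM of Klf5 in basal-like cells but above the 30.9 CPM of Trp63. Nkx2-1 in secretory-like cells (11.4 CPM) also lay under it, as did Foxa2 (11.1 CPM) and Grhl2 (27.2 CPM) in ciliated-like cells. The part of free RNA in such levels was not tested. All 70 cells passing the leukocyte gate, wherever they clustered, held 453 CPM of Klf5 and 112 CPM of Foxa1.

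**Figure D1:**
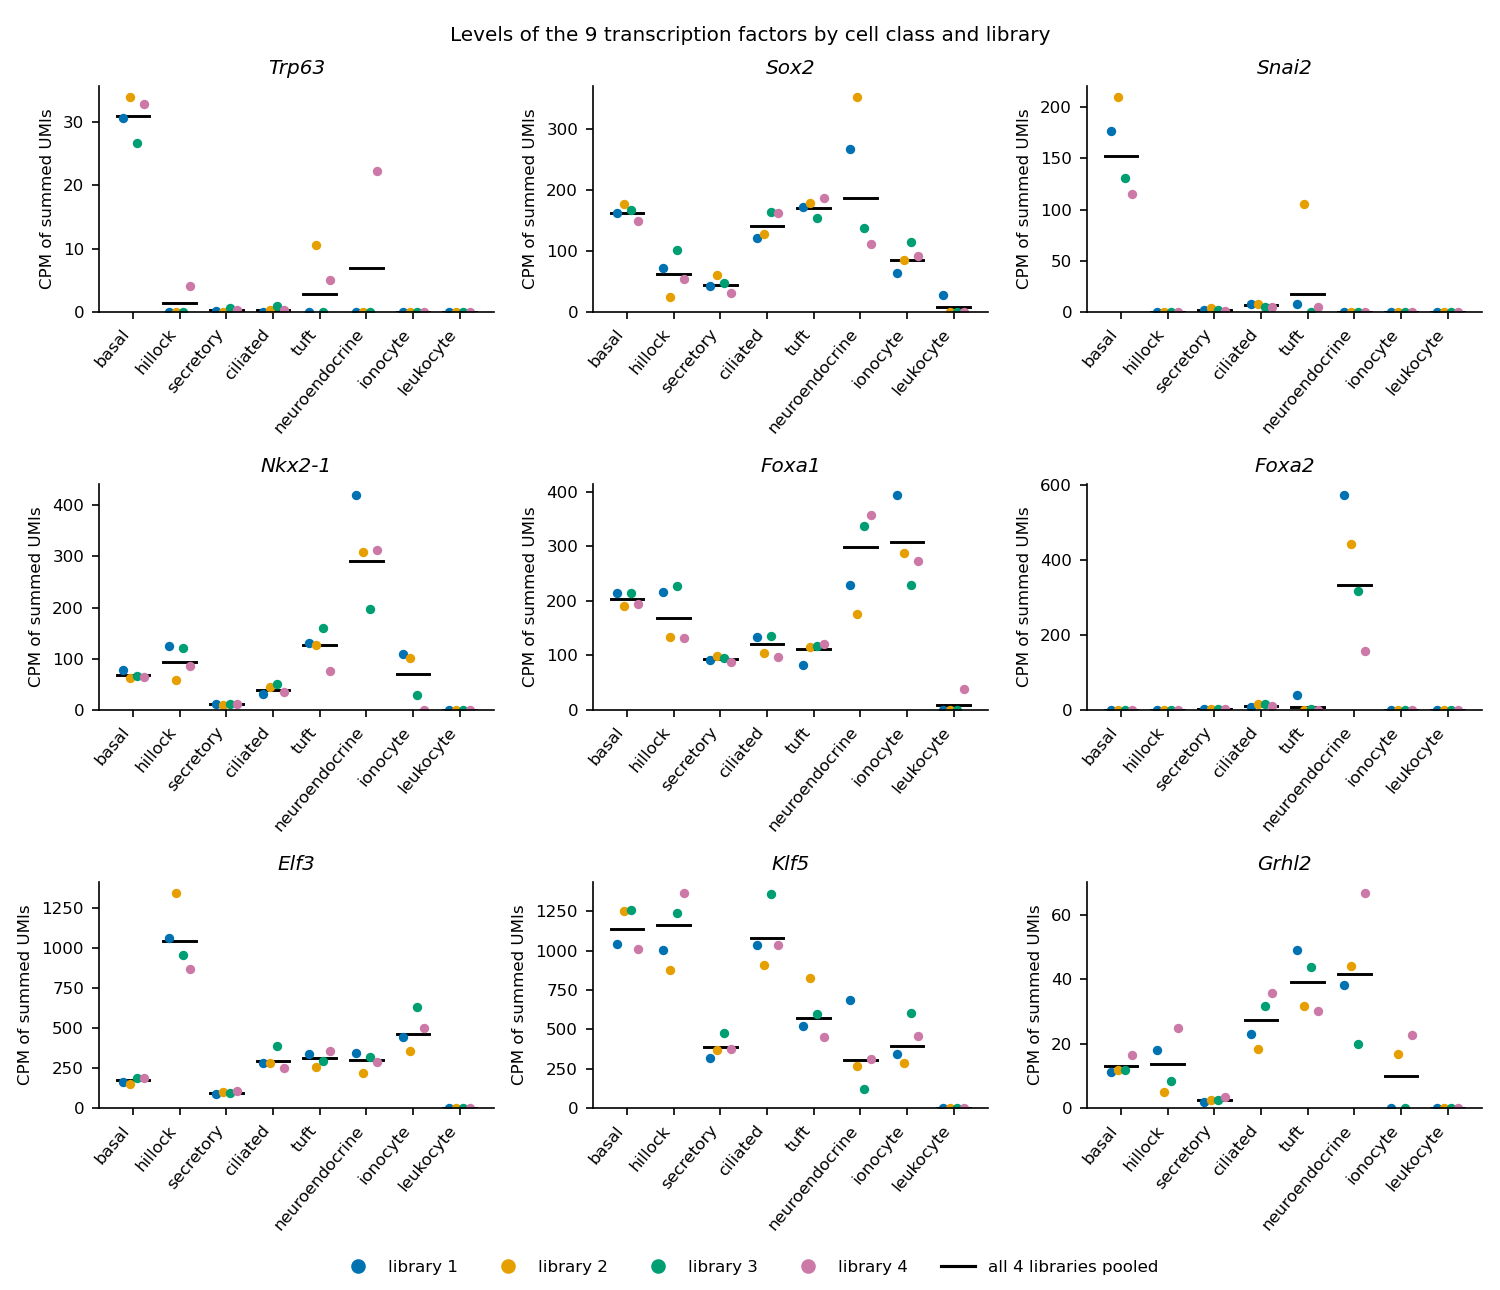
Levels of each factor (CPM of summed UMIs, linear axis from 0) in 8 cell groups, with 1 point per library and a bar for the 4 libraries pooled. Trp63 and Snai2 are high in basal-like cells, Elf3 in hillock-like cells (pooled 1040 CPM) and Foxa2 in neuroendocrine marker-positive cells of the small cluster (pooled 333 CPM).

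Trp63 was a basal-like transcript. Its level in basal-like cells of libraries 1 to 4 was 30.6, 34.0, 26.7 and 32.8 CPM, and 30.9 CPM pooled (interval 28.8 to 33.1). Secretory-like cells held 0.104, 0, 0.637 and 0.270 CPM. The 2 sets of libraries did not overlap, and the log2 ratio of basal-like to secretory-like cells, with 1 CPM added to each level, had a median of 4.79 (lowest 4.08, highest 5.13). Trp63 was detected in only 11.8% of basal-like cells at their median of 4092 UMIs, and in 3.74% when every cell was thinned to 1000 UMIs. At this depth basal-like cells without a Trp63 UMI cannot be called negative. In ciliated-like cells 5 Trp63 UMIs were counted among 3950 cells.

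Snai2 was as sharply basal-like. Basal-like cells of libraries 1 to 4 held 177, 210, 131 and 115 CPM, secretory-like cells 2.02, 3.94, 1.57 and 1.03 CPM, and ciliated-like cells 8.05, 7.36, 4.98 and 4.51 CPM. The lowest basal-like library was far above the highest library of either other class. The median log2 ratio of basal-like to secretory-like cells was 5.76, and in ciliated-like against basal-like cells Snai2 fell by a median of 4.43. Snai2 was detected in 37.3% of basal-like cells. No Snai2 UMI was found in 90 hillock-like cells. A floor of 3 UMIs there is 4.06 CPM, and basal-like cells stood 37.5-fold above that floor. The upper interval bound for 0 UMIs was 5.00 CPM. Tuft-like cells held 8.20, 106, 0 and 5.04 CPM, where the 106 CPM of library 2 came from 10 UMIs in 20 cells.

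The secretory-like levels of these basal factors can be set beside those of basal marker genes in the same cells. Secretory-like Snai2 was 0.899 to 1.88% of the basal-like level across the libraries, and Trp63 0 to 2.39%. Krt5, a basal keratin, stood at 0.259 to 1.41%, Krt14 at 1.23 to 2.24%, Col17a1, a hemidesmosome collagen, at 0.318 to 1.72% and Dapl1 at 1.58 to 4.25%. Krt15 stood apart at 34 to 51%. The part of free RNA in the residual levels of the 2 factors was not tested.

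Sox2 was shared by several classes. Basal-like cells held 163, 178, 167 and 149 CPM, ciliated-like cells 122, 128, 164 and 162 CPM, and tuft-like cells 172, 179, 153 and 187 CPM, with overlapping libraries. Secretory-like cells were lower, at 43.2, 60.7, 47.6 and 30.4 CPM, and no library of theirs reached the lowest ciliated-like library. Hillock-like cells lay at 62.3 CPM pooled (interval 45.6 to 83.1), and their libraries (24.6 to 101 CPM) overlapped those of secretory-like cells.

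In basal-like against secretory-like cells, 6 of the 9 factors were at least 2-fold higher in every library and 1, Foxa2, was at least 2-fold lower. Of 11921 genes with at least 50 UMIs in the 2 classes, 14.7% were higher and 2.26% lower by this rule, and the median gene stood at 0.46. Beside Trp63 and Snai2, the higher factors were Nkx2-1 (median log2 ratio 2.49), Grhl2 (1.94), Sox2 (1.84) and Klf5 (1.57). Foxa1 (1.15, lowest library 0.92) and Elf3 (0.86, lowest 0.57) stayed under the threshold. Secretory-like cells put a large share of their UMIs into a few secreted proteins, which lowers the CPM of all their other genes. With the secretory markers and the antimicrobial lectin Reg3g taken out of the totals, the median gene stood at -0.10, and 4 factors were higher. They were Trp63, Snai2, Nkx2-1 and Grhl2, the 4 with the highest ratios in the unchanged totals. Sox2 moved to 1.15 and Klf5 to 0.89, and neither was called. The share of all genes called higher with these reduced totals is not given.

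**Figure D2:**
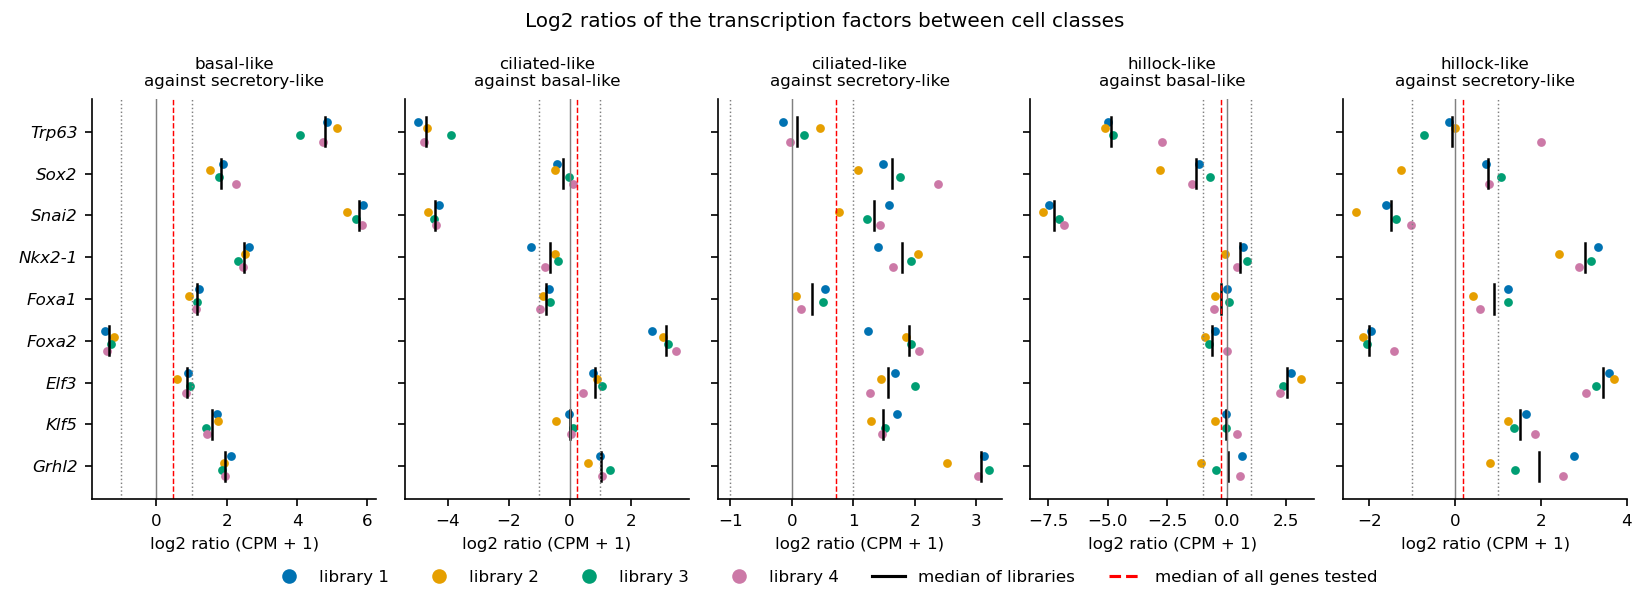
Log2 ratio of each factor (1 CPM added to both levels) in 5 comparisons of cell classes, with 1 point per library, a black bar at the median of libraries, a red dashed line at the median of all genes tested and dotted lines at the 2-fold threshold. Trp63 and Snai2 sit far to the right in basal-like against secretory-like cells (medians 4.79 and 5.76), and Elf3 sits alone beyond the threshold on the right in hillock-like against basal-like cells (median 2.52).

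Genes listed as p63 targets followed the basal side. In basal-like against secretory-like cells, 17 of 18 were higher and 0 were lower, against 14.7% and 2.26% of all genes. Their median log2 ratio was 3.29 against 0.46 for all genes. Lamb3, a laminin chain of the basement membrane (4.71), and Trim29 (4.23) led the list, and the integrin Itga3 (1.85) was among the lowest of those called. In ciliated-like against basal-like cells 12 of the 18 were lower and 0 higher, against 10.2% and 20.6% of all genes, with Igfbp3 (-5.87) and Lamb3 (-5.68) at the far end. In hillock-like against basal-like cells 7 of 18 were lower and 0 higher, against 10.5% and 3.55% of all genes, led by the integrin Itgb4 (-5.49) and the focal adhesion gene Fermt1 (-4.86). In hillock-like against secretory-like cells 6 of 16 were higher, against 6.54% of all genes, led by Trim29 (5.22) and the desmosomal Pkp1 (4.41), and 1, Itgb4 (-3.18), was lower. The p63 paralog Trp73, which acts in multiciliated cells, went the other way from Trp63: it held 12.3 CPM in ciliated-like and 0.432 CPM in basal-like cells, a median log2 ratio of 3.26.

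Other Sox genes also leaned to the basal-like side. In basal-like against secretory-like cells 7 of 8 listed Sox genes were higher, against 14.7% of all genes, including Sox9 (3.37) and Sox4 (2.91), and 0 were lower. In ciliated-like against basal-like cells 4 of 8 were lower, against 10.2% of all genes, with Sox9 (-2.62) and Sox6 (-2.58) at the far end, whereas Sox2 itself was at -0.22 and was not called.

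Nkx2-1 UMIs were counted in every epithelial class, and Nkx2-1 was lowest in secretory-like cells. Its level was 78.0, 63.03, 66.9 and 64.1 CPM in basal-like cells, 32.2, 45.3, 50.9 and 35.8 CPM in ciliated-like cells, and 11.6, 10.2, 12.6 and 10.8 CPM in secretory-like cells. The libraries of these 3 classes did not overlap. Tuft-like cells held 126 CPM pooled (libraries 75.6 to 161) and hillock-like cells 93.4 CPM (59.1 to 126). Neuroendocrine marker-positive cells of the small cluster held 420, 309, 198 and 312 CPM, all above the highest tuft-like library, though these values rest on 5 to 19 cells a library and 42 UMIs.

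Foxa1 and Foxa2, close paralogs with almost the same binding preference, were distributed differently. Foxa1 was found in every epithelial class. Basal-like cells held 215, 190, 215 and 194 CPM, ciliated-like cells 134, 104, 136 and 97.5 CPM, and secretory-like cells 91.6, 99.6, 95.7 and 87.5 CPM. Basal-like cells were above both other classes in every library, and ciliated-like and secretory-like cells overlapped. Ionocyte and neuroendocrine marker-positive cells of the small cluster held 308 and 298 CPM pooled.

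Foxa2 was close to absent from basal-like cells and present in ciliated-like cells. Only 12 Foxa2 UMIs were counted in 5169 basal-like cells, at 0.395, 0.913, 0.688 and 0 CPM. Ciliated-like cells held 8.05, 15.1, 14.9 and 10.2 CPM, so that no libraries overlapped and Foxa2 rose by a median log2 ratio of 3.15. The 90 hillock-like cells held 0 Foxa2 UMIs, with an upper interval bound of 5.00 CPM. Ciliated-like cells stood 2.74-fold above the 4.06 CPM that a floor of 3 UMIs gives there. Foxa3, a further paralog, was instead higher in secretory-like cells: it held 2.47 CPM there, 0.0785 CPM in basal-like cells and 0.238 CPM in ciliated-like cells, with median log2 ratios of -1.64 for basal-like against secretory-like and -1.66 for ciliated-like against secretory-like cells.

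The neuroendocrine marker-positive cells of the small cluster held by far the most Foxa2. Their libraries stood at 573, 442, 317 and 156 CPM, from 48 UMIs in 42 cells, against 0 UMIs in the 39 ionocyte marker-positive cells of the same cluster. The lowest of these libraries was above the highest library of every other class. Sox2 (187 CPM), Foxa1 (298 CPM) and Grhl2 (41.6 CPM) were also found in these cells, Snai2 was at 0 UMIs and Trp63 at 1 UMI.

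Foxa2 within the secretory-like class also sat mostly in cells with neuroendocrine transcripts. Of 6420 secretory-like cells, 107 (1.67%) had at least 3 of the 9 neuroendocrine markers, such as the granule proteins Chga and Scg2. These 107 cells held 143 of the 225 Foxa2 UMIs of the class. Their Foxa2 level was 71.9, 100, 66.5 and 82.0 CPM in libraries 1 to 4, and that of the other secretory-like cells 1.17, 1.07, 1.53 and 0.319 CPM. A Foxa2 UMI was seen in 64.5% of the former and 1.204% of the latter, at median depths of 15430 and 11140 UMIs. The 107 cells also held 44.5 CPM of Nkx2-1, against 10.6 CPM in the other secretory-like cells. They held 89655 CPM of the secretory protein gene Scgb1a1, against 155973 CPM in the other secretory-like cells. Whether they are single cells or droplets with 2 cells was not tested, beyond the removal of 888 likely doublets.

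The same split was seen elsewhere. Among ciliated-like cells, 22 of 3950 had at least 3 neuroendocrine markers and held 98.9 CPM of Foxa2 (interval 65.2 to 144). The other ciliated-like cells held 7.86, 11.2, 12.9 and 8.84 CPM, so their level did not rest on the marker-positive cells. In a deep cluster with both secretory and ciliated markers, 75 of 1980 cells were marker-positive and held 52.3 CPM, against 4.32 CPM in the rest. Without marker-positive cells the difference between basal-like and secretory-like cells was no longer called (median log2 ratio -0.52 against -1.35 with them), and that between ciliated-like and secretory-like cells grew from 1.90 to 2.51.

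**Figure D3:**
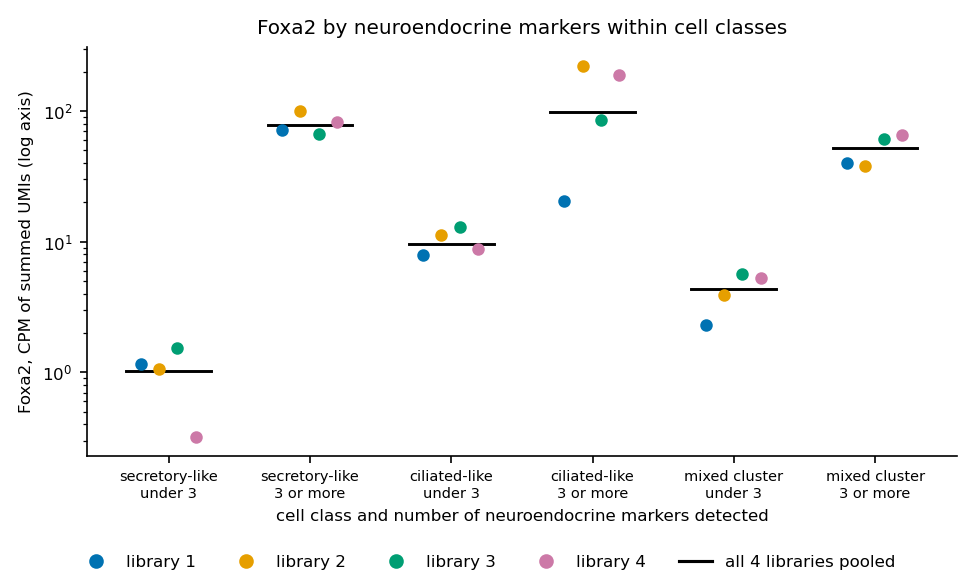
Foxa2 level (CPM of summed UMIs, log axis) in secretory-like cells, ciliated-like cells and the mixed ciliated and secretory cluster, split by whether under 3 or at least 3 of 9 neuroendocrine markers were detected, with 1 point per library and a bar for all libraries pooled. Marker-positive cells are higher in each of the 3 groups, 78.5 against 1.02 CPM pooled in secretory-like cells, and the lowest point among them, 20.3 CPM in ciliated-like cells of library 1, rests on 4 cells.

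The 250 bases before the transcription start of Foxa1 and Foxa2 are shown because these paralogs differed in where they were found. They are RefSeq promoter windows on GRCm38.p6, not the build of the counts, read 5′ to 3′ on the gene's own strand, which is the minus strand for both. Foxa1 lies at chr12:57546112-57546361, and the 5′-most of 3 Foxa2 starts at chr2:148046970-148047219. Promoters of 5 of the 9 factors were in the table used here. Capitals mark matches on either strand to any of 8 motifs: CAGGTG (an E-box of the Snail type), TGTTTAC and TGTTTG (forkhead), AACCNGTT (grainyhead), ACAAAG (Sox), GGAAGT (Ets), CAAGTG (Nkx2) and GGGCGG (the GC box of Klf and Sp factors).
Foxa1: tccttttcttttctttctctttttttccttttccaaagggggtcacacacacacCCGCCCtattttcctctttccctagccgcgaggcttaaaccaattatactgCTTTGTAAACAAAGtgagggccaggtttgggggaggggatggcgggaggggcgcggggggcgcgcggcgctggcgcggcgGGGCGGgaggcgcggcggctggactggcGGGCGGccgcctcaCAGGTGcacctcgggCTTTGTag
Foxa2: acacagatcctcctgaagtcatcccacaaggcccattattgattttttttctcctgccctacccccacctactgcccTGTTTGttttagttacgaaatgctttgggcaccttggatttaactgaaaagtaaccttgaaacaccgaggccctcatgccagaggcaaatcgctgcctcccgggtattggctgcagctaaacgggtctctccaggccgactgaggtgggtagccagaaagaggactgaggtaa

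The Foxa1 window is the richer in these letters. It holds 1 match to TGTTTAC, which 3.17% of 32851 promoter windows of this length have, 3 to ACAAAG (16.5% of windows have at least 1), 3 to GGGCGG (32.7%) and 1 to CAGGTG (17.2%). The forkhead match overlaps 2 of the Sox matches, which do not overlap each other. The Foxa2 window holds 1 match to TGTTTG (15.997%) and none to the other motifs. Matches describe these letters only, and no binding was measured.

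In ciliated-like against basal-like cells, 1 of the 9 factors was higher, Foxa2, and 2 were lower, Trp63 (median -4.72) and Snai2. Of 11751 genes, 20.6% were higher and 10.2% lower. Grhl2 (1.03, lowest library 0.61) and Elf3 (0.83, lowest 0.44) were above 0 in 4 of 4 libraries without passing the threshold, and Klf5 was at 0.01. Grhl2 was called higher under 6 other settings, at 1.17 to 1.55, among them means over cells (1.28). The forkhead gene Foxj1, the master regulator of motile cilia, stood at 7.13, and Rfx3 (3.49) and Rfx2 (3.35), ciliary regulators, were the highest among the other listed airway factors. Without the deepest ciliated-like cluster, a setting added after the data were seen, 6 factors were called, 2 higher and 4 lower, against 20.5% and 13.8% of 11289 genes. Klf5 (-1.10) and Foxa1 (-1.56) were then among the lower and Grhl2 (1.55) among the higher.

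Against secretory-like cells, ciliated-like cells were higher in 6 of 8 tested factors: Grhl2 (3.08), Foxa2 (1.90), Nkx2-1 (1.79), Sox2 (1.62), Elf3 (1.56) and Klf5 (1.49). Of 12103 genes 27.4% were higher and 3.12% lower, with the median gene at 0.72. With the secretory markers and Reg3g taken out of the totals, Grhl2 alone remained past the threshold (2.58), and the median gene moved to 0.14. The share of all genes called in that setting is not given. With the deepest ciliated-like cluster alone, Grhl2 (2.74), Sox2 (1.60) and Foxa2 (1.31) were not called, and Snai2 (1.67) was called higher. Without that cluster Klf5 (0.48) was not called.

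Grhl2 was a low-count transcript whose levels in these whole classes kept the same order in every library. It stood at 23.1, 18.4, 31.6 and 35.8 CPM in ciliated-like cells, 11.1, 11.7, 12.0 and 16.5 CPM in basal-like cells and 1.76, 2.38, 2.55 and 3.51 CPM in secretory-like cells, with no overlap between classes. Tuft-like cells held 39.2 CPM pooled (libraries 30.2 to 49.2) and overlapped ciliated-like cells. Grhl2 was detected in 10.5% of ciliated-like and 6.04% of basal-like cells. The order is that of whole classes, and Grhl2 differed within ciliated-like cells, as given below.

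Ciliated-like cells were not uniform in these factors. A shallow cluster of 2341 cells with a median of 1942 UMIs and a deeper one of 1337 cells with a median of 7330 UMIs shared the 9 ciliated markers. Klf5 was 501, 581, 612 and 493 CPM in the shallow and 1264, 1189, 1701 and 1386 CPM in the deep cluster (median log2 ratio -1.40). Foxj1 went the other way, at 519 CPM pooled in the shallow and 202 CPM in the deep cluster. Of 8 factors tested, 2 were lower in the shallow cluster, Klf5 and Snai2 (-1.45), and 0 were higher, against 4.73% and 2.88% of 10215 genes. Foxa2 (19.6 against 7.11 CPM) and Grhl2 (40.2 against 20.9 CPM) were above in the shallow cluster but were not called. The log2 ratio of Grhl2 ranged widely, at 1.33, 2.43, 0.52 and 0.44 in libraries 1 to 4. Depth moved with the clusters, and its part in these differences was not tested.

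Elf3 was the factor of hillock-like cells. Hillock cells are squamous-like airway cells marked by the keratins Krt13 and Krt4. Elf3 stood at 1060, 1341, 955 and 867 CPM in the 7, 16, 42 and 25 hillock-like cells of libraries 1 to 4. Basal-like cells held 164, 151, 187 and 185 CPM, secretory-like cells 87.3, 101, 96.1 and 104 CPM and ciliated-like cells 281, 279, 388 and 251 CPM. The lowest hillock-like library was above every library of any other class, ionocyte marker-positive cells being the next (355 to 631 CPM). Elf3 was detected in 87.8% of hillock-like cells and, with all cells thinned to 1000 UMIs, in 55.6% of hillock-like against 14.02% of basal-like and 8.87% of secretory-like cells.

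In hillock-like against basal-like cells Elf3 was the 1 of 8 tested factors that was higher, with a median log2 ratio of 2.52, and Snai2 and Trp63 were lower. Of 10295 genes, 3.55% were higher and 10.5% lower. Trp63 in hillock-like cells was 1 UMI, and the ratio of basal-like to hillock-like level was 22.8 with a counting interval of 4.08 to 902. Klf5 (-0.03), Foxa1 (-0.25) and Nkx2-1 (0.56) did not pass the threshold. In hillock-like against secretory-like cells 3 of 8 factors were higher, Elf3 (3.44), Nkx2-1 (3.04) and Klf5 (1.52), against 6.54% of 11259 genes. By the same rule Snai2 and Foxa2 were counted as lower (5.36% of genes). Their secretory-like levels of 2.03 and 2.73 CPM lay under the 4.06 CPM of the 3 UMI floor in hillock-like cells. A difference was therefore not detectable at this depth.

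Grainyhead genes other than Grhl2 were high beside Elf3 in hillock-like cells. Grhl3 (median log2 ratio 2.22), Grhl1 (2.15) and Tfcp2l1 (1.72) were higher than in basal-like cells, while Grhl2 was at 0.05. These were 3 of 5 listed, against 3.55% of all genes. Grhl3 stood at 59.6 CPM in hillock-like, 12.0 CPM in basal-like and 0.510 CPM in secretory-like cells. Of 20 junction genes and grainyhead targets, 5 were higher than in basal-like cells and 10 than in secretory-like cells, and 0 were lower in either. Of all genes 3.55% and 6.54% were higher and 10.5% and 5.36% lower in these comparisons. The tight junction gene Cldn3 (3.27) and Tjp3 (2.86) led against basal-like cells. Among the other listed airway factors, Zfp750 (3.77) and Prdm1 (3.11), regulators of squamous differentiation, were the highest, and Myb (-3.18) and Gata6 (-3.10) the lowest.

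The hillock-like class is small and depends on the clustering: none was found at resolutions 0.5 and 2, and it held 98 cells with the factors allowed among the variable genes, 137 with a mitochondrial maximum of 10% and 358 with doublets kept. With cells classed instead by which marker list had the most UMIs, 1513 cells were taken as hillock. Against basal cells 1 of 8 factors was then called, with Elf3 at 0.81 and Snai2 at -0.28, neither of them called. Against secretory cells Elf3 was at 1.12 and was not called either. The share of all genes called with these gated classes is not given. Elf3 was therefore also followed along the share of Krt13 and Krt4 in each cell's UMIs, over all basal-like, hillock-like and secretory-like cells. This range was chosen after the values were seen.

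**Figure D4:**
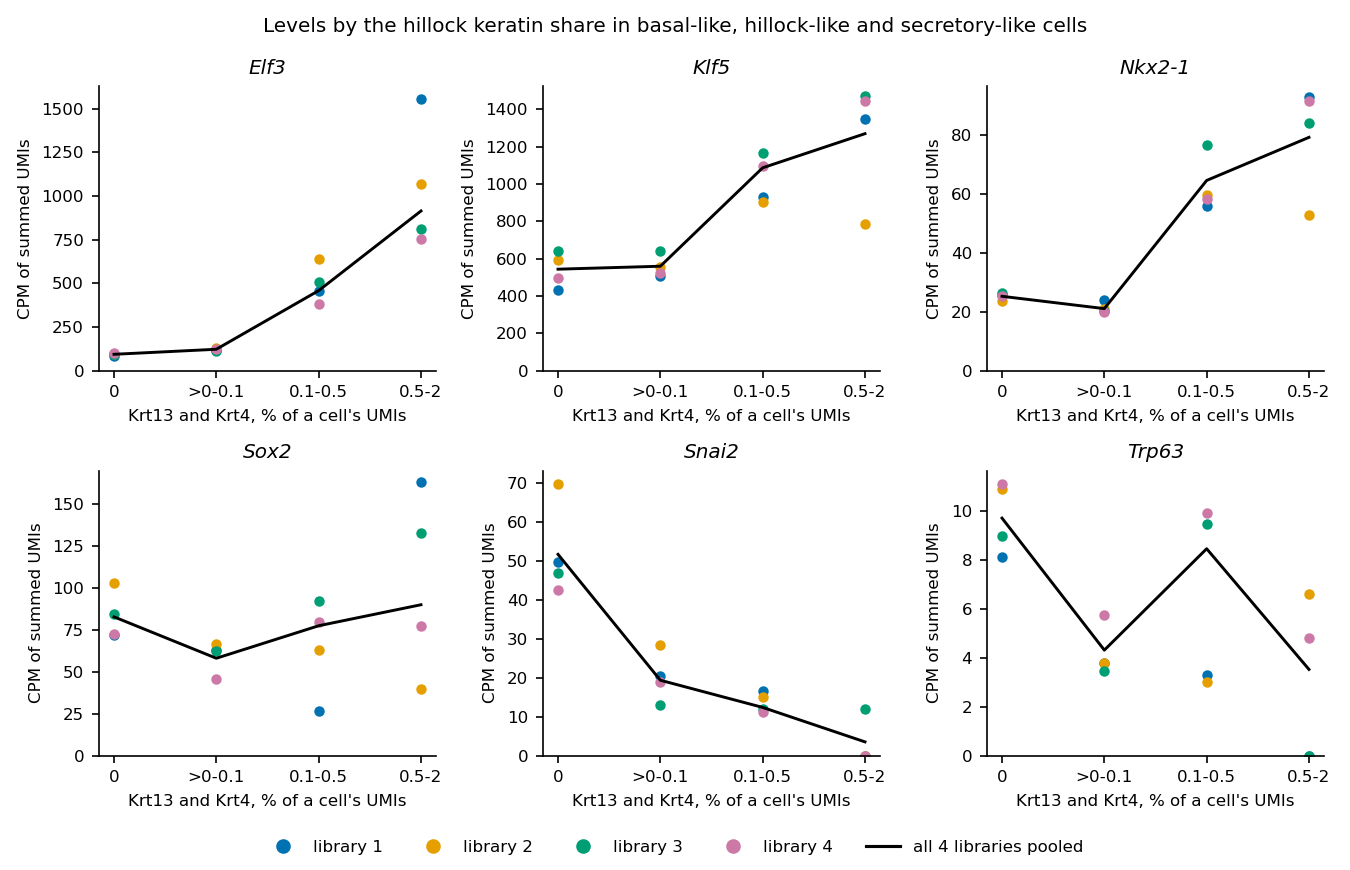
Levels of 6 factors (CPM of summed UMIs, linear axis from 0) in basal-like, hillock-like and secretory-like cells grouped by the share of Krt13 and Krt4 in a cell's UMIs, with 1 point per library and a line for all libraries pooled. Elf3 climbs from 94.6 CPM in cells without these keratins to 915 CPM in the highest group, in every library, while Snai2 is at 51.7 CPM in the first group and 3.52 CPM (2 UMIs) in the last.

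In cells without a Krt13 or Krt4 UMI, Elf3 stood at 84.1, 97.0, 97.8 and 99.3 CPM in libraries 1 to 4. At a share above 0 and up to 0.1% it stood at 122, 132, 115 and 127 CPM, from 0.1 to 0.5% at 458, 642, 508 and 381 CPM, and from 0.5 to 2% at 1557, 1071, 811 and 752 CPM in 6, 12, 30 and 27 cells. The order held in each library. It was also seen within basal-like cells alone, where the pooled level was 131, 224, 439 and 610 CPM over the same groups, and within secretory-like cells, at 80.04, 105 and 357 CPM over the first 3. Snai2 in basal-like cells declined over the groups, from 177 to 114, 30.7 and 9.46 CPM, and Trp63 from 33.7 to 26.2, 20.8 and 4.73 CPM. Klf5 differed less, at 1106, 1170, 1351 and 1603 CPM.

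The promoter window of Elf3, at chr1:135258473-135258722 on the minus strand of GRCm38.p6 and read as above, is shown because Elf3 set hillock-like cells apart.
Elf3: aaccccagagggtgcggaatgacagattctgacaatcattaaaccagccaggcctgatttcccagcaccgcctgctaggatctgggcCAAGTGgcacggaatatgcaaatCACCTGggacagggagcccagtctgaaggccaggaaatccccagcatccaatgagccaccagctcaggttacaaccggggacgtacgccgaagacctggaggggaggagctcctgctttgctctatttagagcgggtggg
It holds 1 match to CAAGTG, found in 11.6% of windows, and 1 to the Snail-type E-box, here as CACCTG on the strand shown. None of the forkhead, grainyhead, Sox, Ets or GC box letters were found in it.

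Basal-like cells themselves formed 2 clusters. The cluster with Krt14, Krt6a, Krt17 and Serpinb2 among its leading genes held less Trp63 (15.5, 24.2, 15.1 and 20.7 CPM) than the one with Apoe, Dapl1 and Dcn among its leading genes (40.5, 41.8, 38.9 and 45.7 CPM), and more Elf3 (246, 205, 252 and 235 against 109, 108, 119 and 131 CPM). For both factors the libraries of the 2 clusters did not overlap. The former cluster had 6 of 9 hillock markers up and the latter 2 of 9, and their part in these differences was not tested. The median log2 ratios were -1.21 and 1.00, and neither reached 2-fold in all 4 libraries. Of 8 factors tested 0 were called in either direction, against 1.13% of 10225 genes higher and 0.645% lower.

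Klf5 was the most widely detected factor, with a UMI in 93.3% of basal-like and 92.5% of secretory-like cells. It stood at 1042, 1251, 1256 and 1011 CPM in basal-like, 1036, 907, 1358 and 1035 CPM in ciliated-like and 318, 370, 477 and 374 CPM in secretory-like cells. Basal-like, ciliated-like and hillock-like libraries overlapped, and secretory-like libraries were all lower. Klf4, a related factor of squamous barrier cells, divided the classes differently: it stood at 3.28 in basal-like against secretory-like cells and at -3.23 in ciliated-like against basal-like cells.

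Genes listed as Nkx2-1 and Foxa targets were also counted. In basal-like against secretory-like cells 6 of 12 were lower and 0 higher (median -1.31), against 2.26% and 14.7% of all genes. Nkx2-1 was higher and Foxa2 lower there, and Foxa1 (1.15, not called) was above 0 in 4 of 4 libraries. Without cells with at least 3 neuroendocrine markers, Foxa2 (-0.52) was not called. The part of any factor in the levels of these targets was not tested. The mucin Muc5b (-6.42) and the surfactant protein gene Sftpb (-4.29) were the lowest targets in this comparison. In ciliated-like against basal-like cells 3 of 12 were higher and 1 lower (median 1.04). Of all genes 20.6% were higher and 10.2% lower, close to those counts. Foxa2 was higher in this comparison, and Nkx2-1 (-0.65) and Foxa1 (-0.77) were above 0 in 0 of 4 libraries. In hillock-like against basal-like cells 5 of 11 were higher and 0 lower, against 3.55% and 10.5% of all genes. Hopx (5.43) and the water channel Aqp5 (4.03) led the higher ones.

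The factors were also followed along the basal share of each cell's basal and secretory marker UMIs. Basal-like, hillock-like and secretory-like cells with at least 20 such UMIs were used. Trp63 was at 0.220 CPM in cells with a share of up to 5%, 7.30 CPM from 5 to 20%, 32.0 CPM from 20 to 50% and 36.7 CPM from 50 to 80%. Snai2 stood at 2.98, 75.2, 141 and 172 CPM and Klf5 at 382, 989, 1171 and 1203 CPM over the same groups. From 80 to 95%, in 269 cells, Trp63 was at 28.4 CPM and Snai2 at 138 CPM. Above 95% only 9 cells were left, with 81.1 CPM of Trp63 (4 UMIs) and 243 CPM of Snai2 (12 UMIs). Elf3 had no single order over the 5 groups up to 95%, at 93.8, 245, 201, 192 and 265 CPM. Hillock-like cells, with 1040 CPM of Elf3, are among the cells used, and their part in these levels was not tested. With secretory genes taken out of the totals its lowest group was at 153 CPM. Library 1 did not share the step down after the second group, at 178.8 and 179.6 CPM.

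**Figure D5:**
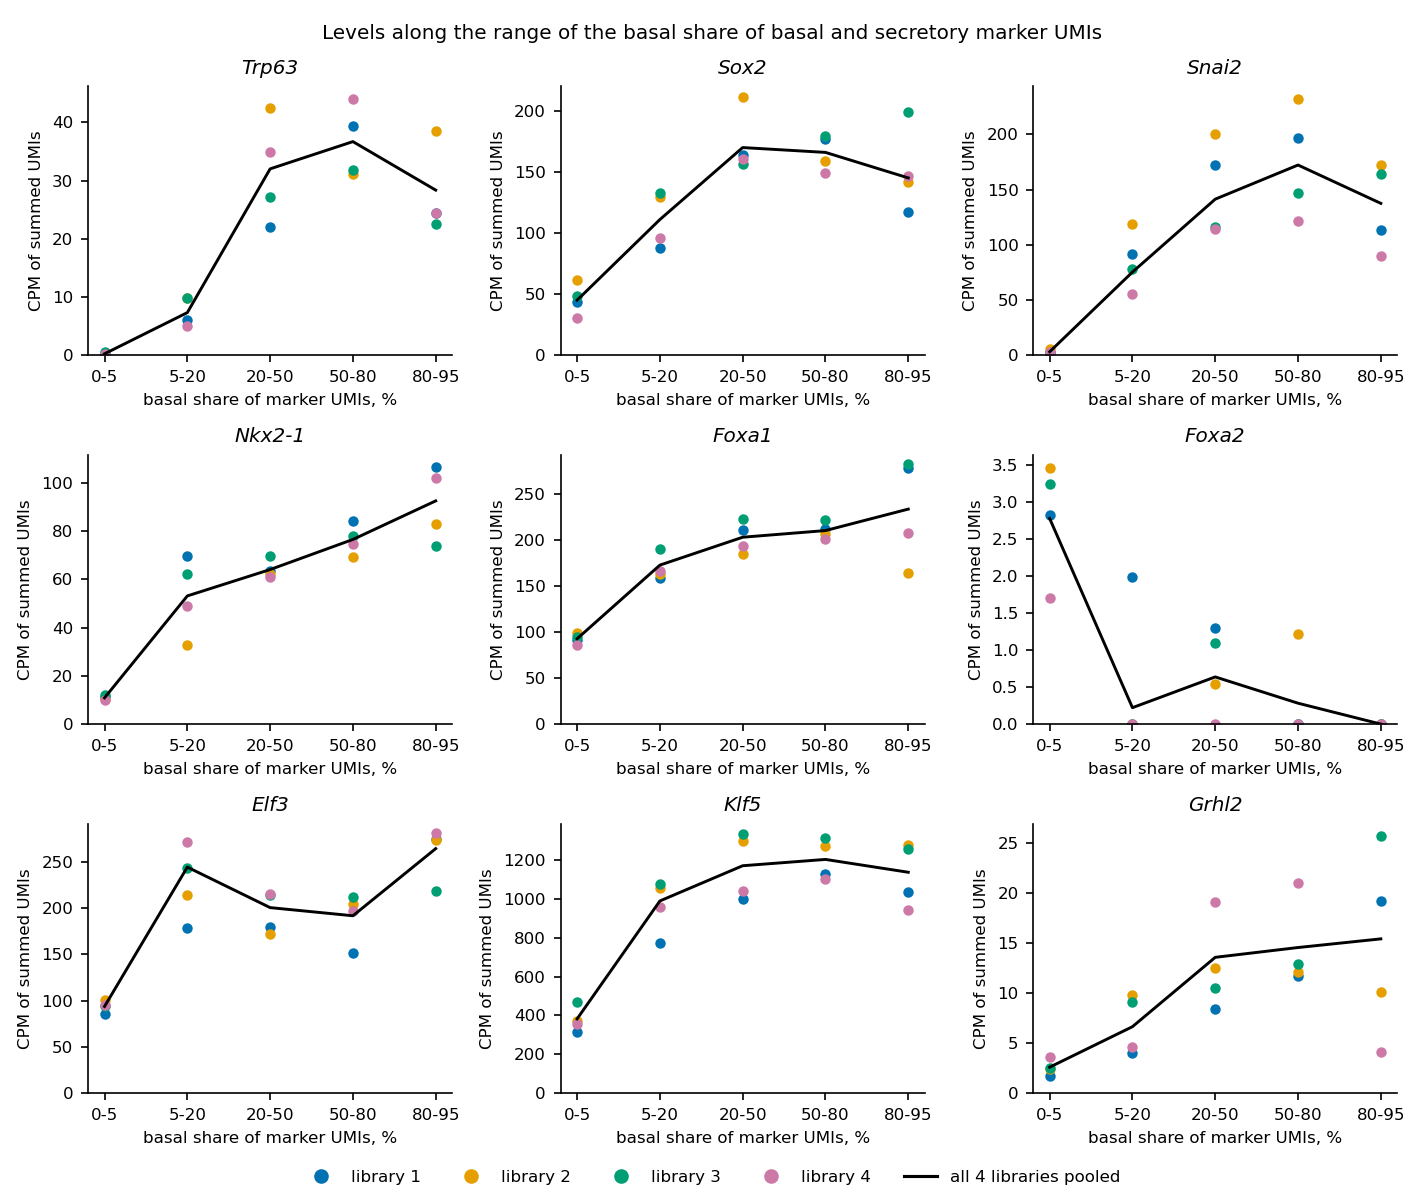
Levels of the 9 factors (CPM of summed UMIs, linear axis from 0) in cells grouped by the basal share of their basal and secretory marker UMIs, with 1 point per library and a line for all libraries pooled. Cells are basal-like, hillock-like and secretory-like, and the group above 95% (9 cells) is not drawn. Trp63 and Snai2 are near 0 up to a share of 5% (0.220 and 2.98 CPM), and Elf3 is at 245 CPM from 5 to 20% and 265 CPM from 80 to 95%.

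Detection of the factors together was followed in single basal-like cells. With 4930 basal-like cells thinned to 2000 UMIs each, Sox2 was detected in 31.4% of cells with a Trp63 UMI and 24.4% of cells without. Trp63 and Snai2 were not found together more often: Snai2 was in 19.8% of Trp63-positive and 22.3% of Trp63-negative cells. Elf3 was in 17.6% of Snai2-positive against 24.6% of Snai2-negative cells, and the order was the same in each library, with 17.5 against 19.4%, 15.4 against 20.5%, 18.9 against 26.8% and 18.1 against 26.8%. These shares are descriptions of cells within libraries.

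Genes with the most similar pattern were taken by Pearson's r of log levels over 18 profiles of class and library, among 9165 genes. The profiles share libraries and depth, and r is given as a description. Trp63 was most like Dcn (0.98), a proteoglycan gene that is also a fibroblast marker, Col17a1 (0.96) and Ltbp4 (0.95). Dcn held 157 CPM in basal-like and 0.931 CPM in secretory-like cells. Snai2 was most like Timm8a1 (0.93), Cyp26b1 (0.93), a retinoic acid-degrading enzyme gene, and Bmp3 (0.93), and Nkx2-1 like Phf20l1 (0.97) and Tcf7l2 (0.97), a Wnt effector. Foxa2 was most like Sec14l4 (0.93), Agps (0.91) and Chga (0.87). Elf3 was most like Laptm4a (0.93), with the epithelial splicing regulator Esrp1 the third (0.93), and Klf5 like Acsl3 (0.94) and the Ets gene Elf1 (0.93). For Sox2 the first was Pdp2 (0.94) and for Foxa1 Rnf2 (0.93).

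The 4 libraries were compared within each class. A gene was counted as apart where its highest library was at least 2-fold above its lowest and their intervals did not overlap. In basal-like cells 0 of 8 factors were apart, against 8.6% of 8903 genes, and the highest over lowest ratio was 1.13 for Foxa1, 1.27 for Trp63 and 1.83 for Snai2. In ciliated-like cells 0 of 8 were apart, against 6.76% of 9010 genes, but 7 of 8 had a ratio above the 1.38 of the median gene, with Grhl2 at 1.95, Foxa2 at 1.88 and Snai2 at 1.79. In secretory-like cells 2 of 8 were apart, Snai2 (3.82) and Foxa2 (2.06), against 10% of 10238 genes, and in both library 2 was the highest and library 4 the lowest. Without cells with at least 3 neuroendocrine markers, Foxa2 had too few UMIs to be tested, and Snai2 (3.79), Sox2 (2.02) and Grhl2 (2.51) were apart, against 10.3% of 10135 genes. Snai2 had its highest library in library 2 and its lowest in library 4 in basal-like cells as well. The libraries differ in genotype, mice and handling, which cannot be told apart.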

How the data were processed

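The authors deposited 1 matrix of whole-number UMI counts per gene and barcode, made with Cell Ranger 6.0.1 per the file headers and GRCm39 per the submitters' processing notes. The annotation release is not given in the sources used here. Barcodes with at least 500 UMIs, at least 300 genes and at most 20% mitochondrial UMIs were kept. An automatic doublet threshold marked too few cells to be used, so the highest-scoring cells, 0.8% per 1000 cells, were removed in each library. Cells were clustered on 2000 variable genes, without the 9 factors, with 30 components, 15 neighbours and Leiden resolution 1 (scanpy 1.11.5, leidenalg 0.10.2, Python 3.11.15). Naming a cluster needed at least 3 markers of a type up, after earlier work on these data, but some clusters that met this were left out. Clusters judged to mix types were set apart (2279 cells). Those flagged as shallow, or as having top genes of another class, stayed unnamed (1404 cells). Among the unnamed was a cluster of 789 cells with 9 of 9 ciliated markers up and a median of 2063 UMIs. A cluster of 272 cells with a median of 748 UMIs was kept as ciliated-like.

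UMIs were summed per class and library. A gene with at least 50 UMIs was called where the log2 ratio of CPM + 1 was at least 1 the same way in all 4 libraries. The libraries of a class were compared for genes of 100 UMIs or more, with a floor of 3 UMIs. The 3′ counts allow levels to be compared within a gene only. The calling step was tested on simulated data for basal-like against secretory-like cells. The simulated counts had counting error only and covered genes with more UMIs than Trp63, Foxa2 and Grhl2 have there. The simulation therefore does not bear on variation between libraries or on calls of low-count genes. Named genes are the 9 factors, the 5 genes most like each, and per list and comparison the 2 highest and 2 lowest called genes, beside relatives of a factor. The factors and gene lists were chosen with earlier results of these data known. Alternatives covered the pseudocount, the UMI minimum, depth, clustering, filters, class gates and each library left out. A genotype comparison was not made, because no source used here ties library numbers to genotypes. Some genes that this rule would name are not reported here.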

Additional observations from a re-analysis of the deposited data

How the results depend on the processing

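Of 248 called ratios recomputed under the planned settings other than leaving out a library, 215 kept their call, 32 lost it and 1 reversed, and 10 of 211 uncalled ratios became called. Leaving out each library in turn kept 96 of 96 calls, and 4 of 84 uncalled ratios became called. A call needs every library, so leaving a library out could lose a call only through the UMI minimum. The 96 kept calls therefore do not measure how stable the calls are. Settings added after the data were seen kept 45 of 51. The reversed ratio was Snai2 in hillock-like against secretory-like cells, at 3.43 with classes gated by marker UMIs, where 1513 cells were taken as hillock. In that comparison 3 factors were called with a pseudocount of 5 CPM, 2 with cells thinned to 1000 UMIs, 3 with doublets kept and 3 with gated classes. In ciliated-like against secretory-like cells 1 was called without secretory markers and Reg3g, and 3 with gated classes. In hillock-like against basal-like cells 1 was called with gated classes, and in ciliated-like against basal-like cells 6 without the deepest ciliated-like cluster. Between libraries, 1 factor in all was apart after thinning (0 in secretory-like and 1 in ciliated-like cells), 4 with means over cells (1 in ciliated-like cells), 1 with doublets kept (1 in secretory-like cells) and 1 with gated classes (1 in secretory-like cells). Most of these counts are given without the share of all genes called under the same setting, and they are not read as particular to the factors. The cause of these changes was not tested. Hillock-like ratios could not be computed at resolutions 0.5 and 2, where no hillock-like class was found. No paired analysis was possible between genotypes because each is 1 library and library numbers are not tied to genotypes. Ratios between cell classes were taken within each library. Depth limits Trp63, Foxa2 and Grhl2 most, with 916, 859 and 1803 UMIs in all barcodes.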
